A study of Mus musculus with 78 samples.

Results

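The heart was compared with the gastrocnemius, a mostly fast muscle of the calf, within the same young control mouse. The 9 young control mice of the series, 4 females and 5 males, were taken by their labels and gave 18 of its 78 mRNA libraries, 1 heart and 1 gastrocnemius library per mouse. The mice were C57BL/6J with no other allele or transgene named, 5 months old by the labels, and received the vehicle, isotonic saline, from implanted osmotic pumps for 8 weeks. By the study's methods the labelled ages are those at the start of this treatment, and tissue was taken after its end. The 20 libraries of the 10 old control mice (5 females and 5 males, 24 months old by the labels, same strain and vehicle) were used to test whether the tissue difference changed with age. The remaining libraries of the series, from mice given the mitochondria-targeted peptide elamipretide, were not used here. The measured quantity was polyadenylated RNA in a piece of whole tissue. Which part of the heart was taken is not given in the sources used here. Hearts were checked by Myh6, the main myosin heavy chain of the adult mouse cardiomyocyte, and gastrocnemius muscles by Actn3, the Z-disc protein of fast myofibres.

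Heart and skeletal muscle are both striated, and many of their contractile, calcium-handling and metabolic proteins come from families of paralogous genes with 1 member used mostly by cardiomyocytes and another by fast or slow myofibres. Cardiomyocytes beat without pause, are joined end to end by intercalated discs, bring calcium in from outside to release more of it from the sarcoplasmic reticulum, and burn mainly fatty acids. Fast myofibres are long multinucleate cells driven by motor nerves, couple a voltage sensor directly to calcium release, and draw on phosphocreatine, glycogen and glycolysis for short bursts of force.

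Heart libraries held 28.1 to 34.5 M counted reads and gastrocnemius libraries 31.02 to 53.2 M. Xist was at 3202 to 9882 reads in the 8 female libraries and at 0 to 53 in the 10 male ones, and Ddx3y at 0 against 2604 to 3352. Levels are given as CPM (counts scaled to a common library size, with RLE scaling over all genes tested). Some libraries stood apart from the others of their tissue. The heart of female 3 held fast-myofibre transcripts at 1212 CPM summed over 10 markers, against 4.97 to 10.5 in the other 8 hearts and 128192 to 221663 in muscles, with 4404 reads of Actn3 against 4 to 20. The heart of female 2 held the largest sum of atrial and conduction markers, 328 CPM against 127 to 159.7, with 2112 reads of the atrial light chain Myl7 against 0 to 72. The heart of male 1 held haemoglobin and other erythrocyte transcripts at 1785 CPM, against 269.9 to 432. Among muscles, males 2 and 5 carried the most reads of the heart genes Myh6 (1071 and 1711, against 51 to 468) and Dsp (102 and 84, against 0 to 22). Muscles also differed widely in slow-myofibre transcripts, with Myh7 at 270 to 29453 reads. Where leaving out 1 mouse moved a quoted log2 difference or median by over 1.5 times, the mouse is named beside it.

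The transcriptomes of both tissues differed for most of the genes measured. Of 17942 genes tested with the mouse as a block, 6924 were higher in heart and 6271 higher in gastrocnemius (edgeR's quasi-likelihood F test, Benjamini-Hochberg adjusted p below 0.05), which is 38.6% and 35% of the genes tested, or 73.5% in all. A stricter test, of whether the difference was larger than 2-fold, was passed by 2635 genes in favour of heart and 2118 in favour of gastrocnemius (14.7% and 11.8%). In 21% of the genes all 9 hearts lay above all 9 muscles, and in 21.9% all lay below. By the fitted difference, 28 genes past the 2-fold test were over 1000-fold higher in heart and 33 over 1000-fold higher in gastrocnemius. The median log2 difference of all genes (heart minus gastrocnemius, as for every log2 difference below) was 0.08. The balance of directions depended on the scaling. The 10 highest nuclear genes held 21.7% to 28.3% of nuclear counts in muscles and 13.3% to 14.8% in hearts. With total counts as the scale, log2 differences rose by 0.47 (median over genes) and the calls split into 10361 for heart and 3582 for gastrocnemius (74.3% for heart against 52.5%), and with totals that leave out mitochondrial DNA they rose by 0.69 and the split was 11930 to 2786 (81.1%). The genes past 2-fold moved in the same way, to 4375 for heart and 1432 for gastrocnemius with total counts and to 5621 and 1235 with totals without mitochondrial DNA. Lists of genes are therefore read against the median of all genes, and their counts of genes called against the shares of all genes given above. In tissue RNA, fewer cells of a type and less RNA per cell cannot be told apart.

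The defining genes separated the tissues in every mouse. Myh6 (chr14:54941921-54966927 in GRCm38) was at 22159 to 25402 CPM in hearts (median 23962) and 2.04 to 50.9 (median 10.3) in muscles, a 2396-fold difference (log2 11.23 ± 0.622 (SE), adjusted p = 1.52e-09). Actn3 (chr19:4861216-4877909) was at 0.0999 to 115 CPM in hearts (median 0.264) and 7480.2 to 19795 (median 15481) in muscles (log2 -14.93 ± 1.08 (SE), adjusted p = 2.37e-08). Without female 3, whose heart gave the highest value, its log2 difference was -15.66. Myh4 (chr11:67238029-67260446), the myosin heavy chain of the fastest (type 2B) fibres, was at 0.04804 to 524 CPM in hearts (median 0.168) and 50811 to 104188 (median 80391) in muscles, with 523.5 in the heart of female 3 and at most 1.16 in the other 8 (log2 -17.28 ± 1.41 (SE), adjusted p = 8.24e-08, and -17.86 without female 3). No heart overlapped a muscle for any of these 3 genes.

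Myh6 and Myh4 were the leading myosin heavy chain genes of heart and gastrocnemius, so the 250 bases before their RefSeq starts are shown, 5′ to 3′ on the strand of the gene, in GRCm38.p6. Capitals mark letters matched by the motifs searched on both strands, which were the MEF2 box, the E-box CAGCTG, the TATA box TATAAA, the GATA site AGATAA, the M-CAT element CATTCC and the CArG box.
Myh6, chr14:54966608-54966857, minus strand: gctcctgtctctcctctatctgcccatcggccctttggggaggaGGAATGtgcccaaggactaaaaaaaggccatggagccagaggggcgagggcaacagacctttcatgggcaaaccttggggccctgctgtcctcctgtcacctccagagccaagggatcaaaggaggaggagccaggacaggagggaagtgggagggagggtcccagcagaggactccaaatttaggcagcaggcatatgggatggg
Myh4, chr11:67237562-67237811, plus strand: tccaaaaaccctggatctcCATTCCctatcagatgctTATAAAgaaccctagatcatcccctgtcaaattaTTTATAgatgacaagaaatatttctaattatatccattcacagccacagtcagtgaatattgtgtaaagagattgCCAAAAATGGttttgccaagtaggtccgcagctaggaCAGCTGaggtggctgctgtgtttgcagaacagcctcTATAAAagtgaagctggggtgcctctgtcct
The Myh6 window held 1 match, an M-CAT element on the other strand. This window lies inside the gene coordinates given above for Myh6, which come from GENCODE and place the start elsewhere than RefSeq. Letters outside the window were not searched. The lack of a TATAAA match in it therefore does not show that the Myh6 promoter has none. The Myh4 window held TATAAA at positions -213 and -31, its reverse complement at -179, CATTCC at -231, a CArG box at -104 and CAGCTG at -67, counted from the start. Over the windows of the same kind of all protein-coding genes tested, CATTCC stood in 10.96%, CAGCTG in 12.53%, TATAAA in 6.996% and a CArG box in 1.16%. Of the windows of genes past 2-fold, CAGCTG stood in 14.9% for heart and 16.2% for gastrocnemius, and the MEF2 box in 3.37% and 3.98%, against 11.6% and 2.56% of the windows of genes not past 2-fold. The other motifs searched were higher in both sets too. TATAAA stood in 8.08% and 8.51% against 6.57%, and AGATAA in 7.93% and 6.61% against 5.64%. CATTCC stood in 12.95% and 11.57% against 10.51%, and the CArG box in 1.24% and 1.78% against 1.05%. These shares are a description of letters and were not tested.

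Myosin heavy chain genes also host microRNAs, shown because their seeds (bases 2 to 8, in capitals) are related and Myh6 and Myh7b, 2 of the hosts, were higher in heart. The mature sequences are from RefSeq.
mmu-miR-208a-3p, in Myh6: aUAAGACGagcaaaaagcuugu
mmu-miR-208b-3p, in Myh7: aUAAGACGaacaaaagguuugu
mmu-miR-499-5p, in Myh7b: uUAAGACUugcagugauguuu
The sequences from Myh6 and Myh7 share a seed, and the seed from Myh7b differs from it in its last base. Polyadenylated RNA gives the level of the hosts and not of the mature microRNAs. Myh7b, a myosin of slow and cardiac muscle, was at 59.5 to 126 CPM in hearts (median 86.9) and 1.96 to 11.9 (median 3.81) in muscles (log2 4.14 ± 0.3103 (SE), adjusted p = 3.48e-08). Myh7, the slow and beta-cardiac heavy chain, was at 244 to 464 CPM in hearts (median 297) and 10.6 to 1076 (median 178) in muscles, so the hearts lay inside the range of the muscles. Its log2 difference was 0.76 ± 0.523 (adjusted p = 0.202), with -0.29 in the 4 females alone and 1.78 in the 5 males alone.

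**Figure D1:**
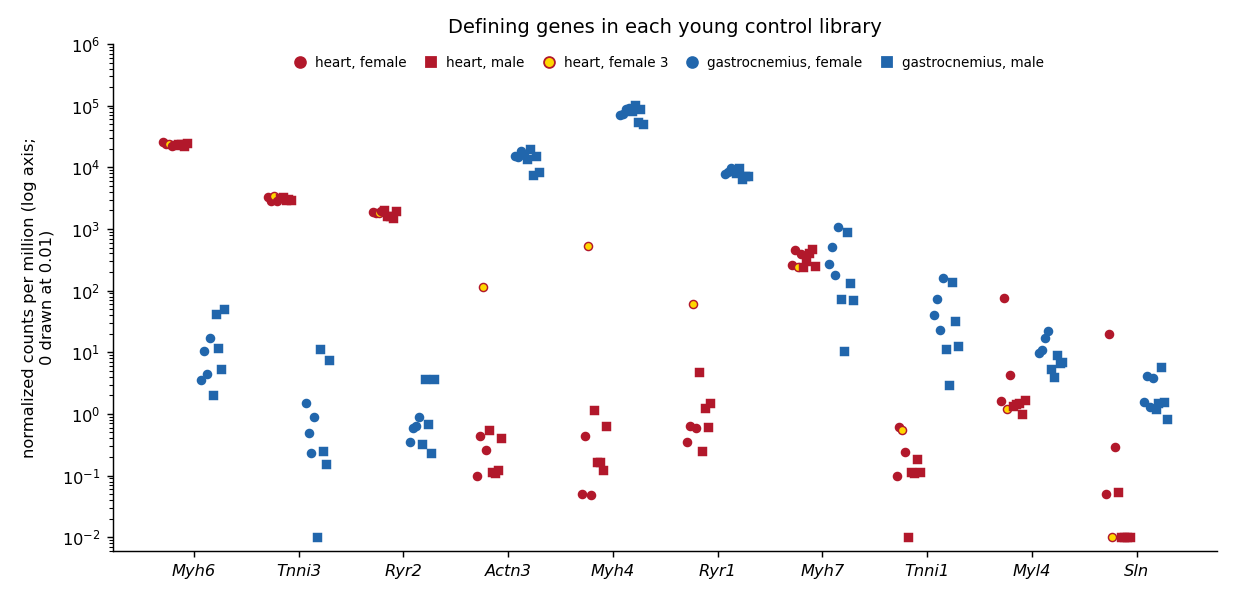
Levels of 10 defining genes in each of the 18 libraries, as normalized counts (CPM) on a log axis (0 drawn at 0.01), with hearts in red, muscles in blue, circles for females and squares for males, and the heart of female 3 in gold. Myh6, Tnni3 and Ryr2 are high in all hearts, Actn3, Myh4 and Ryr1 are high in all muscles with female 3 the highest heart, and Myh7, Myl4 and Sln overlap between the tissues.

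Thick filament genes divided by paralogue, with more of them higher in gastrocnemius. Of 25 tested, 6 were higher in heart and 18 in gastrocnemius, of which 6 and 16 passed the 2-fold test, and the median log2 difference was -4.57 beside 0.08 for all genes. When 1 mouse was left out, the median was -4.46 to -3.24 (-3.29 without female 3), since for 7 of the mice 27 genes then passed the filter on low counts. Over the same 25 genes it was -4.87 to -4.34. The 6 heart genes were Myh6, Myh7b, the ventricular light chains Myl2 and Myl3, the cardiac myosin-binding protein Mybpc3, and the cardiac myosin light chain kinase Mylk3. Mybpc3 was at 2963 to 3811 CPM in hearts (median 3499.8) and 0 to 5.65 (median 0.0699) in muscles (log2 12.82 ± 0.873 (SE), adjusted p = 1.29e-08). Of its 304 muscle reads, 144 came from male 2 and 142 from male 5, and the log2 difference was 13.60 without male 2 and 13.67 without male 5. Myl2, the regulatory light chain of ventricle and slow fibres, was at 4219.8 to 5225 CPM in hearts (median 4862) and 16.8 to 313 (median 97.3) in muscles (log2 5.45 ± 0.429 (SE), adjusted p = 5.84e-08). Neither gene overlapped between the tissues. On the gastrocnemius side, the fast light chains Mylpf and Myl1 were at 4367 to 7048 (median 6116) and 7391 to 13057 (median 8685) CPM in muscles, against 0.2302 to 37.5 (median 0.641) and 10.7 to 67.9 (median 13.3) in hearts. Mybpc2, the fast myosin-binding protein, was at 10.3 to 72.4 CPM in hearts (median 17.3) and 5360.1 to 12385 (median 9141) in muscles. Fibre-type heavy chains Myh1 (2X) and Myh2 (2A) lay at 1324 to 8109 (median 4158) and 509 to 6535 (median 2858) CPM in muscles, and at 0 and 0 in the median heart. Because these genes and Myh4 are nearly identical in long stretches, reads could be split between them.

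Light chain and atrial genes showed where 1 heart decides a value. Myl4, the atrial essential light chain, was at 1.01 to 76.2 CPM in hearts (median 1.53) and 4.001 to 21.9 (median 9.18) in muscles, with 76.2 in the heart of female 2 and at most 4.203 in the others (log2 -1.99 ± 0.526 (SE), adjusted p = 0.00375, and -2.46 without female 2). Without the mouse as a block, its difference was -0.84 and did not pass, nor did it in females alone (-1.67). Sln, which codes for the calcium pump regulator sarcolipin of atria and skeletal muscle, was at 0 to 19.7 CPM in hearts (median 0) and 0.833 to 5.81 (median 1.54) in muscles, again with female 2 the highest heart (log2 -4.11 ± 0.937 (SE), adjusted p = 0.00132, and -5.63 without female 2).

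Thin filament genes followed the same division. Of 20 tested, 6 were higher in heart and 14 in gastrocnemius, 6 and 11 of them past 2-fold, with a median of -1.71. Cardiac troponin I, Tnni3, was at 2841 to 3423 CPM in hearts (median 3056) and 0 to 11.1 (median 0.499) in muscles (log2 11.49 ± 0.801 (SE), adjusted p = 1.63e-08), and cardiac troponin T, Tnnt2, at 5227 to 6949.9 CPM in hearts (median 6067) and 1.43 to 18.9 (median 2.803) in muscles (log2 10.46 ± 0.478 (SE), adjusted p = 2.12e-10). The fast partner Tnnt3 was at 0.197 to 125 CPM in hearts (median 0.407) and 15362 to 26666 (median 19724) in muscles, with 125 in the heart of female 3 and at most 0.528 in the others (log2 -15.05 ± 1.04 (SE), adjusted p = 1.52e-08, and -15.66 without female 3). The fast Tnni2 was at 0.337 to 52.9 CPM in hearts (median 0.817) and 6699 to 11635 (median 7526) in muscles (log2 -12.93 ± 0.821, and -13.43 without female 3, whose heart was the highest). Cardiac and fast troponins were thus separated in every mouse. Slow troponins behaved otherwise: Tnni1 was at 0 to 0.623 CPM in hearts (median 0.115) and 2.903 to 159 (median 32.2) in muscles (log2 -7.71 ± 0.384 (SE), adjusted p = 5.14e-10), and Tnnt1 at 8.36 to 10.9 CPM in hearts (median 8.99) and 6.75 to 386 (median 83.2) in muscles with overlap (log2 -3.23 ± 0.528 (SE), adjusted p = 8.38e-05). Both were highest in the muscle of female 4, as was Myh7. Of the actins, cardiac Actc1 was at 6905 to 8870.1 CPM in hearts (median 7666) and 49.999 to 416 (median 299) in muscles (log2 5.05 ± 0.365 (SE), adjusted p = 2.4e-08) and skeletal Acta1 at 94.02 to 375 CPM in hearts (median 173) and 32004 to 47534 (median 44923) in muscles (log2 -8.03 ± 0.275 (SE), adjusted p = 1.23e-11). Tnnc1, the troponin C of heart and slow fibres, was higher in heart (log2 5.10 ± 0.525), while the fast Tnnc2 had only 27 to 71 reads in a muscle and 0 in every heart. Tnnc2 overlaps Ube2c in the annotation, so its level and the troponin C shares are uncertain.

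Z-disc and titin-associated genes were more mixed, with 8 of 27 higher in heart and 18 in gastrocnemius (5 and 14 past 2-fold, median -1.25). Fhl2, a LIM-domain protein of the cardiac sarcomere, was at 955 to 1291 CPM in hearts (median 1187) and 1.01 to 5.06 (median 2.75) in muscles (log2 8.75 ± 0.272 (SE), adjusted p = 4.82e-12). The stress-responsive Csrp3 and the small heat-shock protein Hspb7 were 16.9-fold and 5.21-fold higher in heart. Actn2, the alpha-actinin of all striated muscle, was at 1526 to 1778 CPM in hearts (median 1638) and 349 to 1830.1 (median 914) in muscles, which overlapped (log2 0.67 ± 0.218, adjusted p = 0.0131, not past 2-fold). Among gastrocnemius genes, Myoz1, a calcineurin-binding protein of fast fibres, was at 0.06105 to 13.004 CPM in hearts (median 0.225) and 1596 to 2881 (median 1829) in muscles (log2 -12.33 ± 0.739 (SE), adjusted p = 3.46e-09, and -13.27 without female 3). Ttn, which codes for the giant spring titin, was 3.19-fold higher in gastrocnemius, at 11216 to 24627 (median 19209) against 5593 to 6374 (median 5907) CPM, without overlap.

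All 12 intercalated disc genes tested were higher in heart, 8 of them past 2-fold, with a median of 3.61 and none called for gastrocnemius. Desmoplakin, Dsp, which ties desmosomes to intermediate filaments, was at 1209.6 to 1486 CPM in hearts (median 1367) and 0 to 4.001 (median 0) in muscles (log2 11.41 ± 0.768 (SE), adjusted p = 1.14e-08). Dsp read counts were 0 in 5 of the 9 muscles and reached 102 and 84 in males 2 and 5, the same muscles that held the most Myh6. Without male 2 the log2 difference of Dsp was 12.10 and without male 5 12.06. Gja1, the gap junction protein connexin 43, was at 382 to 485 CPM in hearts (median 450.3) and 9.16 to 19.3 (median 16.9) in muscles (log2 4.86 ± 0.131 (SE), adjusted p = 1.26e-12), and N-cadherin, Cdh2, at 274 to 316 CPM in hearts (median 305) and 1.75 to 6.43 (median 2.85) in muscles (log2 6.71 ± 0.1795). Popdc2, a membrane protein of both striated muscles, was 6.06-fold higher in heart. Jup, Ctnna3, Gja5 and Xirp1 were called for heart without passing the 2-fold test.

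Within 23 families of paralogues, the share of each member was taken from counts divided by exon length. The member with the largest share differed between heart and gastrocnemius in 14 families and was the same in 9. The 9 include troponin C, whose shares are uncertain because Tnnc2 overlaps Ube2c. Shares of the member highest in heart differed between the tissues in all 23 families (two-sided exact sign-flip permutation over 9 mice, adjusted p of 0.0041 in 22 families and 0.0078 in the other, where the smallest p that 9 pairs allow is 0.0039). The member was picked by its mean share in these same hearts. Where the leading member differs between the tissues, this choice favours a higher share in heart, so the p-values there are not independent support. Myh6 made up 98.2% ± 0.776 (SD, n = 9) of myosin heavy chains in hearts and 0.0183% ± 0.0223 in muscles, where Myh4 held 89.9%. Ryr2 made up 99.3% ± 1.36 of ryanodine receptors in hearts and 0.0116% ± 0.0134 in muscles, and Atp2a2 99.5% ± 1.04 and 0.711% ± 0.5801 of calcium pumps. The switch was less complete for the L-type calcium channels, with Cacna1c at 85.7% ± 2.84 in hearts. This depended on the exon lengths used. The difference between the tissues was 85.6 percentage points with them and 94.6 from counts alone. Ldhb, the lactate dehydrogenase of oxidative tissue, held 84.1% ± 1.04 in hearts and 12.8% ± 7.75 in muscles. Families that kept their leading member included muscle enolase Eno3, muscle creatine kinase Ckm (94.1% ± 0.669 in hearts and 99.9% ± 0.0382 in muscles), the translocase Slc25a4, and Cox6a2 and Cox8b of complex IV, each with a smaller share in heart, while Cox7a1 had a larger one (75.9% ± 2.25 and 66.5% ± 3.96).

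**Figure D2:**
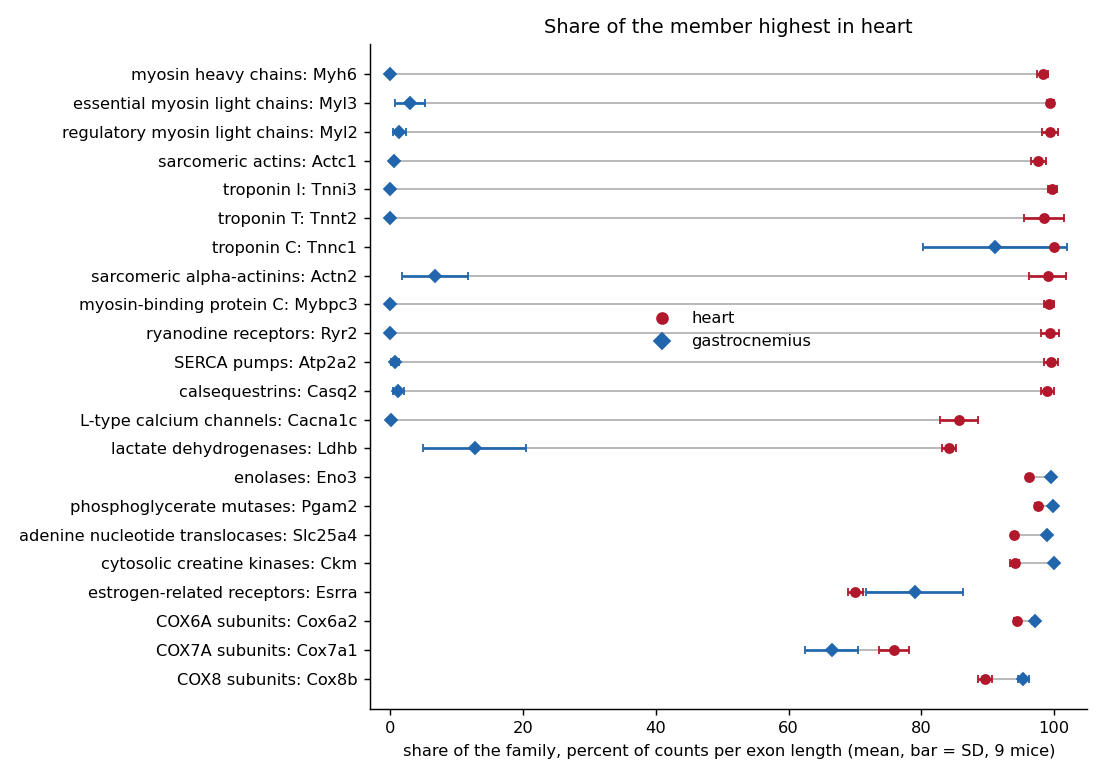
Share of the member highest in heart within each of 22 of the 23 families, in percent of counts divided by exon length, with hearts as red circles and muscles as blue diamonds, as mean and SD over 9 mice. In 13 of those drawn, from myosin heavy chains to lactate dehydrogenases, the red and blue marks lie at opposite ends, and in the other 9 the same member leads in both tissues. These 9 include troponin C, whose shares are uncertain because Tnnc2 overlaps Ube2c. The family not drawn is one of the 14 with different leading members.

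Levels that can be compared between genes, as TPM (counts divided by exon length and scaled to a common sum), put sarcomere genes first in both tissues. In hearts the highest nuclear genes by median were Actc1 (14515 TPM), Myh6 (10645), the oxygen store myoglobin Mb (9212), the fatty acid carrier Fabp3 (7518) and Myl2 (7459.8). In muscles they were Acta1 (70916 TPM), Myh4 (32279), Tnnt3 (31248), the fast calcium pump Atp2a1 (26192) and the calcium buffer Pvalb (16901). The leading gene of muscles was thus several times higher than that of hearts on this scale.

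Calcium-handling genes split by the 2 forms of excitation-contraction coupling. Of 41 tested, 14 were higher in heart and 25 in gastrocnemius (11 and 21 past 2-fold, median -1.27). The shares over all genes tested were 38.6% and 35% (14.7% and 11.8% past 2-fold). Ryr2 (chr13:11553102-12106945), the cardiac calcium release channel, was at 1496 to 2005 CPM in hearts (median 1828) and 0.231 to 3.75 (median 0.6397) in muscles (log2 10.87 ± 0.472 (SE), adjusted p = 1.28e-10). Ryr1 (chr7:29003344-29125179), its skeletal counterpart, was at 0.253 to 61.1 CPM in hearts (median 0.647) and 6439 to 9683 (median 7962) in muscles (log2 -12.53 ± 0.868 (SE), adjusted p = 1.53e-08, and -12.98 without female 3). The calcium pumps separated likewise, with Atp2a2 at 11361 to 15155 CPM in hearts (median 13551) and 101 to 855 (median 273) in muscles and Atp2a1 at 0.561 to 266 CPM in hearts (median 0.724) and 24868 to 43756 (median 35304) in muscles. Pln, the inhibitor of the cardiac pump, was at 978 to 1167 CPM in hearts (median 1081) and 0.3204 to 3.36 (median 1.08) in muscles (log2 9.83 ± 0.346 (SE), adjusted p = 1.57e-11). Pvalb, which buffers calcium in fast fibres, was at 0 to 44.98 CPM in hearts (median 0.144) and 5119.5 to 10099 (median 6993) in muscles (log2 -14.21 ± 1.07 (SE), adjusted p = 3.76e-08, and -15.01 without female 3). None of these 6 genes overlapped between the tissues. The reticulum calcium store Casq1 was 636-fold higher in gastrocnemius and Casq2 19.1-fold higher in heart. Of the voltage-gated calcium channels, cardiac Cacna1c was 53.1-fold higher in heart and skeletal Cacna1s 86.5-fold higher in gastrocnemius. Slc8a1, the sodium-calcium exchanger that returns calcium to the outside, was 12.4-fold higher in heart.

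Of 28 genes of membrane excitability, 15 were higher in heart and 10 in gastrocnemius (13 and 8 past 2-fold, median 0.87), beside 38.6% and 35% of all genes tested. Their summed level went the other way without overlap, at 3394 to 4190 CPM in hearts and 5371 to 6656 in muscles. Kcnip2, the partner of a repolarizing potassium channel, was at 128 to 153 CPM in hearts (median 141) and 0 to 0.559 (median 0.1602) in muscles (log2 9.44 ± 0.266 (SE), adjusted p = 1.8e-12), and the background potassium channel Kcnk3 was 249-fold higher in heart. On the gastrocnemius side were the skeletal sodium channel Scn4a (18.8-fold) and the chloride channel Clcn1 (26.9-fold), which steadies the resting fibre.

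Genes for the receiving side of motor and autonomic nerves differed too. Of 11 neuromuscular junction genes tested, 10 were higher in gastrocnemius, 8 of them past 2-fold, with a median of -2.92. Chrna1, the ligand-binding subunit of the muscle acetylcholine receptor, was at 0 to 0.545 CPM in hearts (median 0.173) and 19.9 to 27.9 (median 22.3) in muscles (log2 -6.86 ± 0.285 (SE), adjusted p = 8.19e-11), and acetylcholinesterase, Ache, at 1.43 to 3.597 CPM in hearts (median 2.43) and 35.3 to 69.4 (median 43.7) in muscles (log2 -4.25 ± 0.144). Dok7, an adaptor of the muscle-specific kinase, went the other way at 20.4 to 27.2 CPM in hearts (median 23.9) and 11.2 to 18.1 (median 15.4) in muscles (log2 0.67 ± 0.0817, adjusted p = 5.42e-06, not past 2-fold). Of 12 autonomic and hormone receptors, 9 were higher in heart and 3 in gastrocnemius (7 and 3 past 2-fold, median 2.005). Chrm2, the muscarinic receptor of the vagus nerve's target cells, was at 105.4 to 136 CPM in hearts (median 119) and 0 to 0.314 (median 0.0699) in muscles (log2 10.35 ± 0.271 (SE), adjusted p = 9.96e-13). Adrb1, a beta-adrenergic receptor, was at 23.3 to 35.9 CPM in hearts (median 26.9) and 0.0595 to 0.489 (median 0.146) in muscles (log2 6.98 ± 0.196 (SE), adjusted p = 1.8e-12), and neither receptor overlapped between the tissues. Adrb3 and the prostaglandin receptor Ptger3 were among those higher in gastrocnemius. Agtr1a, an angiotensin II receptor, was 9.104-fold higher in heart.

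Transcription factors of the cardiac lineage were higher in heart in 15 of 18 cases and higher in gastrocnemius in 2 (14 and 2 past 2-fold, median 5.49). Without single mice 19 or 20 of these genes passed the filter and the median was 4.86 (without male 5) to 5.46. Gata4 (chr14:63198922-63271692) was at 107 to 130.2 CPM in hearts (median 118) and 0 to 0.178 (median 0) in muscles, with 14 reads in all 9 muscles together (log2 11.09 ± 0.249 (SE), adjusted p = 2.8e-13). Nkx2-5 and Tbx20, which act with Gata4 in heart formation, were at 55.99 to 81.6 (median 64.8) and 86.4 to 109 (median 101) CPM in hearts and at 0 to 0.235 (median 0) and 0 to 1.25 (median 0) in muscles. Hopx, a homeodomain protein without DNA binding, was 75.97-fold higher in heart. Mef2c, a partner of both cardiac and skeletal programmes, was at 66.2 to 83.4 CPM in hearts (median 72.3) and 824 to 1028 (median 941) in muscles (log2 -3.68 ± 0.0715 (SE), adjusted p = 1.28e-13), with every muscle above every heart. All 16 factors of the skeletal lineage were higher in gastrocnemius, 14 past 2-fold, with a median of -7.20 (-7.11 when the 3 genes with at most 3 reads in all hearts together are set to that floor). Tbx15 (chr3:99240381-99354259), a T-box factor of fast fibres, was at 0.281 to 2.7996 CPM in hearts (median 0.6495) and 261 to 448 (median 331) in muscles (log2 -8.72 ± 0.301 (SE), adjusted p = 1.3e-11, and -9.08 without female 3). Myod1, the myogenic determination factor, was at 0 to 0.122 CPM in hearts (median 0.0961) and 12.3 to 26.4 (median 18.8) in muscles (log2 -7.93 ± 0.236 (SE), adjusted p = 3.05e-12). The limb muscle factor Lbx1 was at 109.6 to 180.2 (median 118) CPM in muscles and the fibre-expressed Myf6 at 47.3 to 88.03 (median 61.2), with medians of 0 and 0 in hearts. Mef2d differed least, at log2 -0.80 ± 0.05298, not past 2-fold.

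Hox genes, which mark position along the body and limb, were found almost solely in gastrocnemius. Of 29 tested of 39 in the list, 26 were higher in gastrocnemius, 25 of them past 2-fold, none was called for heart, and the median was -5.60 (-6.31 without female 3). Hoxc10 (chr15:102966796-102971893), a hindlimb gene, was at 0 to 0.523 CPM in hearts (median 0) and 74.5 to 128 (median 84.2) in muscles, and all 20 heart reads of it came from female 3, so no fold is quoted. Hoxd8 was at 0.527 to 1.57 CPM in hearts (median 0.672) and 34.7 to 105.5 (median 62.1) in muscles (log2 -6.19 ± 0.246 (SE), adjusted p = 5.16e-11) and Hoxd9 at 0 to 0.523 CPM in hearts (median 0.1998) and 13.9 to 47.9 (median 27.6) in muscles (log2 -6.95 ± 0.295), each without overlap. The 3 genes not called were all of the 3′ end of the HoxB cluster. Hoxb2 was at 0.115 to 0.449 CPM in hearts (median 0.244) and 0 to 0.327 (median 0.114) in muscles (log2 0.86 ± 0.582), Hoxb3 at log2 0.42 ± 0.506 and Hoxb4 at 0.36 ± 0.313, with adjusted p of 0.194, 0.468 and 0.31. Hoxb5 was called at log2 -1.07 ± 0.392 but not past 2-fold, and its call was lost in 10 of 19 other settings or subsets of mice.

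**Figure D3:**
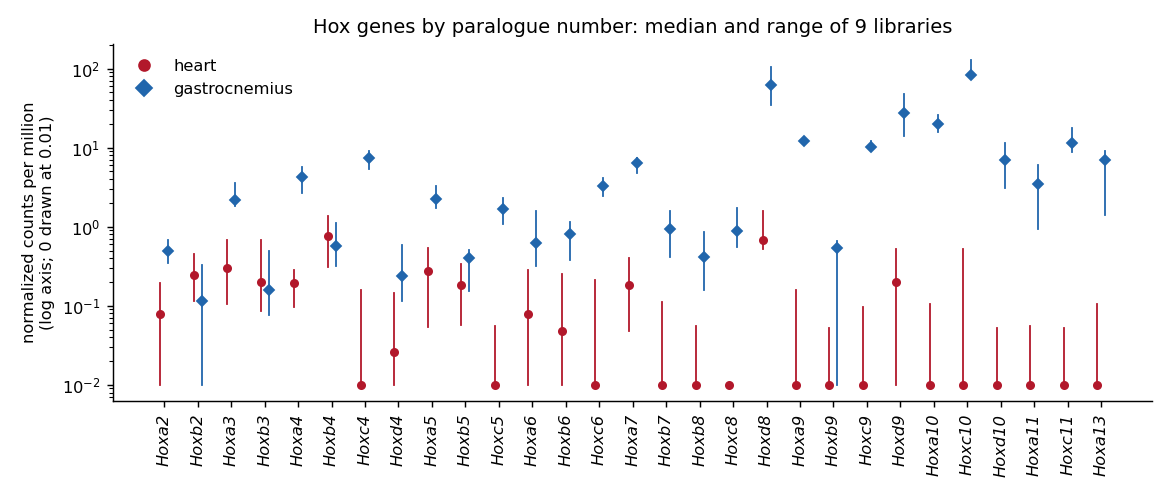
Normalized counts (CPM) of the 29 Hox genes tested, ordered by paralogue number, on a log axis with 0 drawn at 0.01, as the median (mark) and range (line) of the 9 hearts (red circles) and the 9 muscles (blue diamonds). Blue marks lie far above red ones from the middle of the clusters onward, while Hoxb2, Hoxb3 and Hoxb4 overlap.

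RNA-binding regulators of splicing were split, 3 of 12 higher in heart and 7 in gastrocnemius (1 and 2 past 2-fold), with a median of -0.39 that turned to 0.09 with total counts as the scale and to 0.31 with totals without mitochondrial DNA. Of all genes tested, 38.6% and 35% were called (14.7% and 11.8% past 2-fold). Rbm20, which controls titin splicing, was at 208 to 266 CPM in hearts (median 232) and 61.6 to 97.01 (median 83.1) in muscles (log2 1.55 ± 0.0651 (SE), adjusted p = 9.27e-11). Rbfox1 and Mbnl1, both known for muscle splicing, were 7.11-fold and 3.65-fold higher in gastrocnemius.

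Secreted factors separated by tissue, 13 of 19 higher in heart and 6 in gastrocnemius (8 and 5 past 2-fold, median 1.07). Nppb, the B-type natriuretic peptide gene, was at 59.7 to 138 CPM in hearts (median 82.9) and 0 to 0.124 (median 0) in muscles (log2 11.81 ± 0.226 (SE), adjusted p = 1.24e-13). Male 3 gave 4 of its 6 muscle reads, and without that mouse no fold is quoted. Nppa, its atrial relative, was at 11.04 to 40.6 CPM in hearts (median 16.5) and 0 to 0.1398 (median 0) in muscles (log2 9.07 ± 0.312 (SE), adjusted p = 1.24e-11, and 8.68 without female 2, the highest heart). Its 8 muscle reads included 4 of female 1, without which the log2 difference was 9.81. Corin, the protease that activates these peptides, was 352-fold higher in heart. Mstn, which codes for the growth inhibitor myostatin, was at 0.0545 to 0.942 CPM in hearts (median 0.244) and 39.8 to 146 (median 88.2) in muscles (log2 -8.14 ± 0.229 (SE), adjusted p = 1.8e-12). Ostn (musclin), a ligand of the natriuretic peptide clearance receptor, was at 20.8 to 153 (median 68.8) CPM in muscles and at a median of 0.0552 in hearts. Fndc5, the precursor of irisin, was 3.37-fold higher in heart, at 292 to 398 (median 328) against 41.97 to 178 (median 92.7) CPM.

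Fatty acid uptake and beta-oxidation genes were higher in heart almost throughout. Of 35, 32 were called for heart, 24 past 2-fold, and 2 for gastrocnemius, neither past 2-fold, with a median of 1.43 beside 0.08 for all genes. Lpl (chr8:68880491-68907448), the lipase that frees fatty acids at the capillary wall, was at 4911 to 6118 CPM in hearts (median 5882) and 329 to 1402 (median 736) in muscles (log2 2.91 ± 0.208 (SE), adjusted p = 2.11e-08). Fabp3, the carrier inside the cell, was at 1676 to 2345 CPM in hearts (median 2139) and 139 to 535 (median 300.0) in muscles (log2 2.83 ± 0.217 (SE), adjusted p = 4.56e-08), and Cd36, the uptake protein, at 1237 to 1570.3 CPM in hearts (median 1420.2) and 175 to 451 (median 276) in muscles (log2 2.29 ± 0.145 (SE), adjusted p = 6.3e-09). No muscle reached the lowest heart for these 3 genes. Hadha and Hadhb, the trifunctional protein of the mitochondrial cycle, were 2.84-fold and 3.55-fold higher. The exceptions were Ucp3, a mitochondrial carrier of fast muscle (log2 -1.08 ± 0.1201, with overlap), and Acacb, whose product inhibits fatty acid entry, at -0.37 ± 0.0601, which turned to 0.10 with total counts and 0.32 with totals without mitochondrial DNA. All 6 ketone body genes were higher in heart, 4 past 2-fold, with a median of 1.96. Among them the ketone and lactate transporter Slc16a1 was at 168 to 203 CPM in hearts (median 192) and 26.99 to 66.5 (median 55.3) in muscles (log2 1.96 ± 0.136 (SE), adjusted p = 1.55e-08) and the dehydrogenase Bdh1 at 91.9 to 182 CPM in hearts (median 127) and 9.96 to 76.2 (median 28.4) in muscles (log2 1.97 ± 0.294).

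Glycolytic genes went the other way, 18 of 27 higher in gastrocnemius and 8 in heart (16 and 6 past 2-fold, median -1.88). Gapdh was at 1808 to 2452 CPM in hearts (median 2129.6) and 6796 to 11236 (median 9286) in muscles (log2 -2.13 ± 0.107 (SE), adjusted p = 5.77e-10), and Ldha at 447 to 547 CPM in hearts (median 493.1) and 2638 to 4309.5 (median 3648) in muscles (log2 -2.86 ± 0.101 (SE), adjusted p = 1.57e-11). Eno3, Pfkm and Pkm, the enzymes of later and regulated steps in muscle, were 7.11-fold, 5.602-fold and 5.11-fold higher in gastrocnemius. The 6 genes past 2-fold in the heart's favour were Hk1, Pfkl, Pfkp, Pfkfb2, Pgam1 and Ldhb. Ldhb was at 1073 to 1390.0 CPM in hearts (median 1241) and 50.8 to 447 (median 209.6) in muscles (log2 2.58 ± 0.272 (SE), adjusted p = 1.21e-06), Hk1 at 148 to 203 CPM in hearts (median 173) and 12.2 to 17.1 (median 13.8) in muscles, and Pfkl at 117 to 140.2 CPM in hearts (median 129) and 12.1 to 15.5 (median 13.3) in muscles. Ldhb, Hk1 and Pfkl did not overlap between the tissues, and neither did Gapdh and Ldha.

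Glycogen genes resembled glycolysis, with 13 of 18 higher in gastrocnemius and 4 in heart (11 and 2 past 2-fold, median -1.86). Pygm (chr19:6384399-6398459), the muscle glycogen phosphorylase, was at 1086 to 1303 CPM in hearts (median 1214) and 9628 to 18979 (median 13385) in muscles (log2 -3.46 ± 0.136 (SE), adjusted p = 4.6e-11). Its brain-type paralogue Pygb was at 749 to 925 CPM in hearts (median 836) and 7.47 to 19.03 (median 11.4) in muscles (log2 6.19 ± 0.161 (SE), adjusted p = 9.83e-13). Per length, Pygm remained the larger in hearts too, at a median of 1137 TPM against 533 for Pygb. Phka1, the muscle regulatory subunit of phosphorylase kinase, was 28.7-fold higher in gastrocnemius.

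Pyruvate dehydrogenase and its regulators were mostly a little higher in heart, 10 of 13 against 3, but few passed 2-fold (2 and 1, median 0.30). The phosphatases that switch the complex on were exchanged: Pdp2 was at 33.8 to 50.6 CPM in hearts (median 43.7) and 7.58 to 18.02 (median 9.998) in muscles (log2 2.05 ± 0.114) and Pdp1 at 38.9 to 47.4 CPM in hearts (median 42.5) and 86.8 to 148 (median 121) in muscles (log2 -1.50 ± 0.0904). Pdk4, a kinase that switches it off, was at 131 to 885 CPM in hearts (median 218) and 117 to 1909 (median 454) in muscles, with female 2 the highest in both tissues (higher in gastrocnemius, adjusted p = 0.000329, not past 2-fold). Of 20 genes listed for the tricarboxylic acid cycle, 15 were higher in heart and 1 in gastrocnemius, and 2 passed 2-fold, both for heart (median 0.36). Those were the NADP-dependent isocitrate dehydrogenase Idh2, at 1523 to 1863 CPM in hearts (median 1731) and 125 to 631 (median 288) in muscles (log2 2.41 ± 0.229 (SE), adjusted p = 3.96e-07), and the cytosolic malate dehydrogenase Mdh1 (2.68-fold). Neither is the form that carries the step in the cycle itself, which is NAD-dependent and mitochondrial. Citrate synthase, Cs, often used as a measure of mitochondrial content, was at 923 to 1095 CPM in hearts (median 1031) and 765 to 1053 (median 909) in muscles, with overlap (log2 0.18 ± 0.0685, adjusted p = 0.033), and its call was lost when any of 6 single mice was left out. Idh3a was the one gene called for gastrocnemius (log2 -0.63 ± 0.0688, turning to 0.06 with totals without mitochondrial DNA).

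Phosphocreatine and adenine nucleotide genes were divided, 9 of 18 higher in heart and 7 in gastrocnemius (3 and 7 past 2-fold, median 0.15), beside 38.6% and 35% of all genes tested. Ckm, muscle creatine kinase, was at 508 to 717 CPM in hearts (median 619) and 8062 to 14699.9 (median 10945) in muscles (log2 -4.14 ± 0.131 (SE), adjusted p = 5.79e-12), and Ckb, the brain type, was 3.91-fold higher in heart. Ampd1, the AMP deaminase of skeletal muscle, was at 0 to 11.7 CPM in hearts (median 0) and 876 to 2045 (median 1676) in muscles, with 11.7 in the heart of female 3 and at most 0.0479 in the others. Female 3 gave 447 of its 449 heart reads, so no fold is quoted. Slc25a4, the ADP/ATP carrier of muscle mitochondria, was at 3245 to 4103 CPM in hearts (median 3691) and 3174 to 4609.8 (median 4066) in muscles, which overlapped. Its log2 difference was -0.06 ± 0.0898 (adjusted p = 0.567), and it took the other sign, 0.03, with TMM scaling, 0.41 with total counts, 0.63 with totals without mitochondrial DNA and 0.10 in females alone. Slc25a5, the carrier of non-muscle cells, was 5.99-fold higher in heart.

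**Figure D4:**
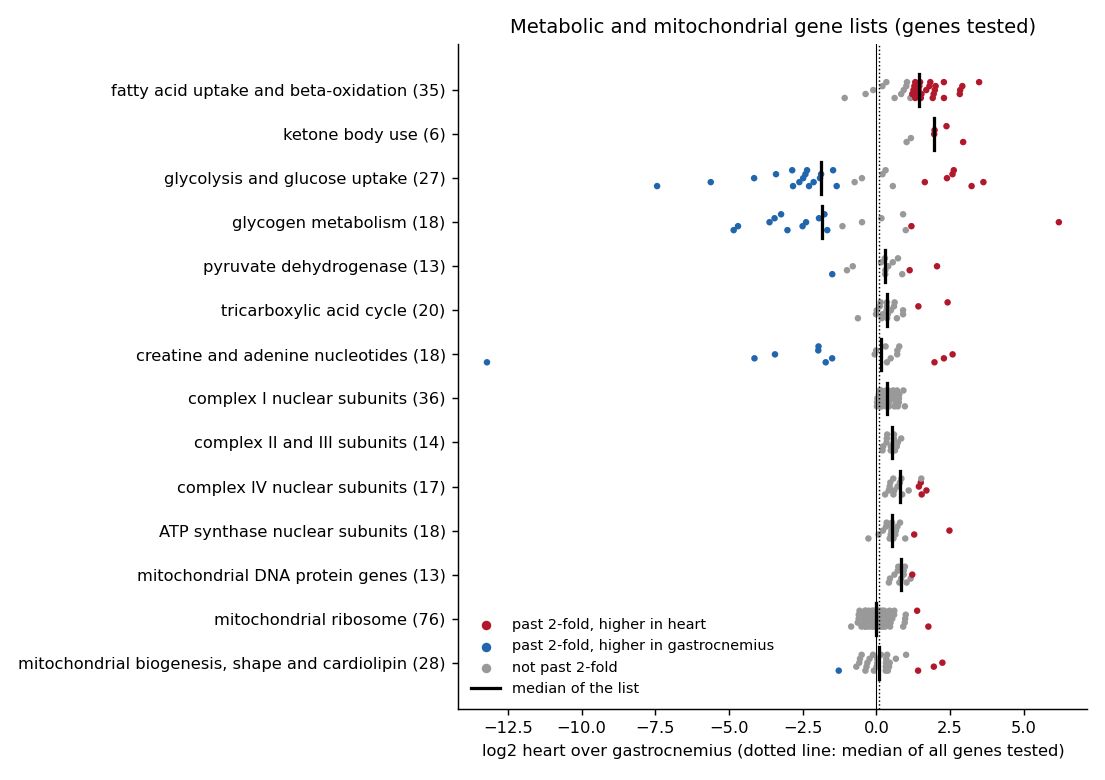
Log2 difference (heart minus gastrocnemius) of each gene tested in the metabolic and mitochondrial lists, with the number tested in brackets, red and blue for genes past the 2-fold test in favour of heart and gastrocnemius, grey for the others, a black bar at the median of the list and a dotted line at the median of all genes (0.08). Fatty acid oxidation and ketone genes lie mostly to the right, glycolysis and glycogen genes to the left with a few red points, and most respiratory chain subunits form a narrow band right of 0.

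Most subunits of the respiratory chain were higher in heart, by amounts that were mostly small with RLE scaling. With totals without mitochondrial DNA the median was 1.06 for complex I and 1.49 for complex IV, beside 0.77 for all genes. Of 36 nuclear genes of complex I, 29 were called for heart, none for gastrocnemius, and none passed 2-fold (median 0.37). All 14 genes of complexes II and III with cytochrome c were called for heart and none passed 2-fold (median 0.53). All 17 of complex IV were called for heart, 4 past 2-fold (median 0.80). These 4 were Cox7a1, Cox8a, Cox6a1 and Cox4i2. Cox7a1, the heart and muscle form of its subunit, was at 237 to 351 CPM in hearts (median 283) and 59.6 to 147 (median 98.6) in muscles (log2 1.53 ± 0.129 (SE), adjusted p = 1.17e-07), Cox8a at log2 1.69 ± 0.0854, and the subunit Cox4i1 at 1.09 ± 0.103. Of 18 ATP synthase genes, 16 were called for heart and 1 for gastrocnemius, with 2 past 2-fold (median 0.52). Atpif1, the inhibitor that stops the enzyme from running backwards, differed most, at 17.8 to 25.6 CPM in hearts (median 22.4) and 2.97 to 5.41 (median 4.02) in muscles (log2 2.47 ± 0.0828 (SE), adjusted p = 9.65e-12), followed by Atp5h (log2 1.28 ± 0.0916). Atp5g2, a ring subunit gene, was called for gastrocnemius at -0.27 ± 0.0683, which turned to 0.20 with total counts and 0.42 with totals without mitochondrial DNA.

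Mitochondrial DNA supplied a much larger part of the heart libraries. Its genes took 22.4% ± 1.56 (SD, n = 9) of heart counts, from 19.3% to 23.7%, and 9.65% ± 1.77 of muscle counts, from 8.26% to 12.99%. The difference within a mouse was 12.7 ± 1.64 percentage points, higher in heart in 9 of 9 mice (two-sided exact sign-flip permutation p = 0.0039, the smallest that 9 pairs allow). The 13 protein genes alone gave 12.2 points. As single genes all 13 were called for heart, 1 past 2-fold, at a median log2 difference of 0.84. mt-Co1, a core subunit of complex IV, was at 59781 to 81135 CPM in hearts (median 74589.5) and 32556 to 49924 (median 37349) in muscles (log2 0.92 ± 0.123 (SE), adjusted p = 1.2e-05), and the gene past 2-fold was mt-Nd3 (log2 1.21 ± 0.117), whose counts are low beside its neighbours on the genome. The share of counts moves with what else a library holds, and CPM values were scaled by RLE, so a share and a log2 difference are not the same quantity. Nuclear genes of the mitochondrial ribosome did not follow. Of 76 tested, 27 were called for heart, 24 for gastrocnemius and 25 for neither, with 2 past 2-fold and a median of 0.00, which was -0.10 in males alone, 0.12 in females alone, 0.47 with total counts and 0.69 with totals without mitochondrial DNA. The calls lay near the shares over all genes tested, 38.6% for heart and 35% for gastrocnemius. The 2 past 2-fold were Mrps35 (3.39-fold) and Mrpl39 (2.6005-fold), both for heart.

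Regulators of mitochondrial mass, shape and cardiolipin were also mixed, 12 of 28 higher in heart and 9 in gastrocnemius (3 and 1 past 2-fold, median 0.09, and -0.02 in males alone), near the 38.6% and 35% of all genes tested. Lclat1, an acyltransferase that acts on cardiolipin and related lipids, was at 108 to 212 CPM in hearts (median 159) and 28.6 to 37.4 (median 32.9) in muscles (log2 2.24 ± 0.0824 (SE), adjusted p = 2.48e-11). The nuclear receptors Esrrb and Ppara, which switch on oxidative genes, were 3.85-fold and 2.66-fold higher in heart, and the coactivator Ppargc1a was at log2 1.01 ± 0.0963, not past 2-fold. Ptpmt1, a phosphatase of cardiolipin synthesis, was the gene past 2-fold for gastrocnemius. Genes of muscle protein turnover favoured gastrocnemius, 11 of 14 against 2 (6 and 1 past 2-fold, median -1.03). Klhl41, a kelch protein of the sarcomere, was at 62.1 to 76.5 CPM in hearts (median 68.6) and 693 to 891 (median 826) in muscles (log2 -3.55 ± 0.0696 (SE), adjusted p = 1.28e-13). Fbxo32, the ubiquitin ligase atrogin-1, was 2.93-fold higher in gastrocnemius, while the transcription factor Foxo3 was 2.29-fold higher in heart.

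Markers of other cell types differed as well. All 9 macrophage markers were called for heart, 8 past 2-fold, with a median of 2.19 and summed levels of 135 to 175 (median 149.9) CPM in hearts and 22.8 to 66.3 (median 38.03) in muscles. Csf1r, the receptor for macrophage growth factor, was at 23.9 to 33.96 CPM in hearts (median 27.9) and 3.14 to 13.1 (median 7.06) in muscles (log2 1.93 ± 0.165 (SE), adjusted p = 1.34e-07), and C1qa and Lyve1 were 5.13-fold and 4.72-fold higher. Of 11 endothelial markers, 10 were called for heart, 5 past 2-fold (median 1.03), and their sums did not overlap, at 1326 to 1564 (median 1451) and 540.0 to 891 (median 702) CPM. Kdr, the endothelial receptor for VEGF, was at 241 to 303 CPM in hearts (median 251) and 58.3 to 118 (median 75.5) in muscles (log2 1.77 ± 0.109 (SE), adjusted p = 4.71e-09). All 5 erythrocyte genes were past 2-fold for heart (median 2.14), at sums of 269.9 to 1785 (median 376) and 37.4 to 180.3 (median 93.1) CPM, with male 1 highest in both tissues.

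Fibroblast and mural cell markers were nearer to balance. Of 9 fibroblast markers, 4 were higher in heart and 2 in gastrocnemius, with 1 past 2-fold (median 0.22). That gene was Tcf21, a transcription factor of cardiac fibroblasts, at 5.37 to 7.28 CPM in hearts (median 6.41) and 0 to 0.0618 (median 0) in muscles (log2 8.45 ± 0.354 (SE), adjusted p = 8.75e-11). Its 4 muscle reads were 2 of male 3 and 2 of male 5, and without either mouse no fold is quoted. Of 8 mural markers, 3 were called for heart and none for gastrocnemius, with none past 2-fold (median 0.19). The mural sums nevertheless did not overlap, at 1166 to 1306 CPM in hearts and 866 to 1102 in muscles. Among 5 lymphocyte markers tested, 2 were called for heart and 1 for gastrocnemius, the latter being the T cell receptor chain Cd3e, at 0.494 to 1.62 (median 1.32) CPM in muscles and 11 reads in all hearts. The mesothelial factor Wt1 was 55.9-fold higher in heart (log2 5.80, and 6.46 without female 3), while Krt19 and Msln were higher in gastrocnemius.

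Markers of further cell types were higher in the gastrocnemius libraries. All 6 adipocyte markers were past 2-fold for gastrocnemius (median -5.10), at sums of 0.109 to 12.4 (median 1.16) CPM in hearts and 30.5 to 363 (median 82.1) in muscles. Adipoq, which codes for adiponectin, was at 0 to 1.05 CPM in hearts (median 0.1103) and 3.28 to 50.4 (median 8.05) in muscles (log2 -5.35 ± 0.443 (SE), adjusted p = 9.76e-08), with female 3 the highest muscle and a log2 difference of -5.10 without that mouse and -5.98 without female 2, the highest heart. Of 8 Schwann cell markers, 7 were called for gastrocnemius and 1 for heart (3 and 1 past 2-fold, median -1.18). The sums were 57.4 to 67.9 (median 64.4) CPM in hearts and 119 to 705 (median 172) in muscles, with male 5 the highest muscle, and Mal was the exception (3.46-fold higher in heart, with overlap). All 5 satellite cell markers were past 2-fold for gastrocnemius, at summed levels of 0 to 0.144 (median 0.0561) and 25.9 to 39.3 (median 31.2) CPM. All 7 tendon markers were called for gastrocnemius, 6 past 2-fold (median -4.56), Fmod among them at 87.7 to 387 (median 232) CPM in muscles and 0.305 to 13.3 (median 0.999) in hearts. How far these cell types bear on the other gene groups was not tested.

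**Figure D5:**
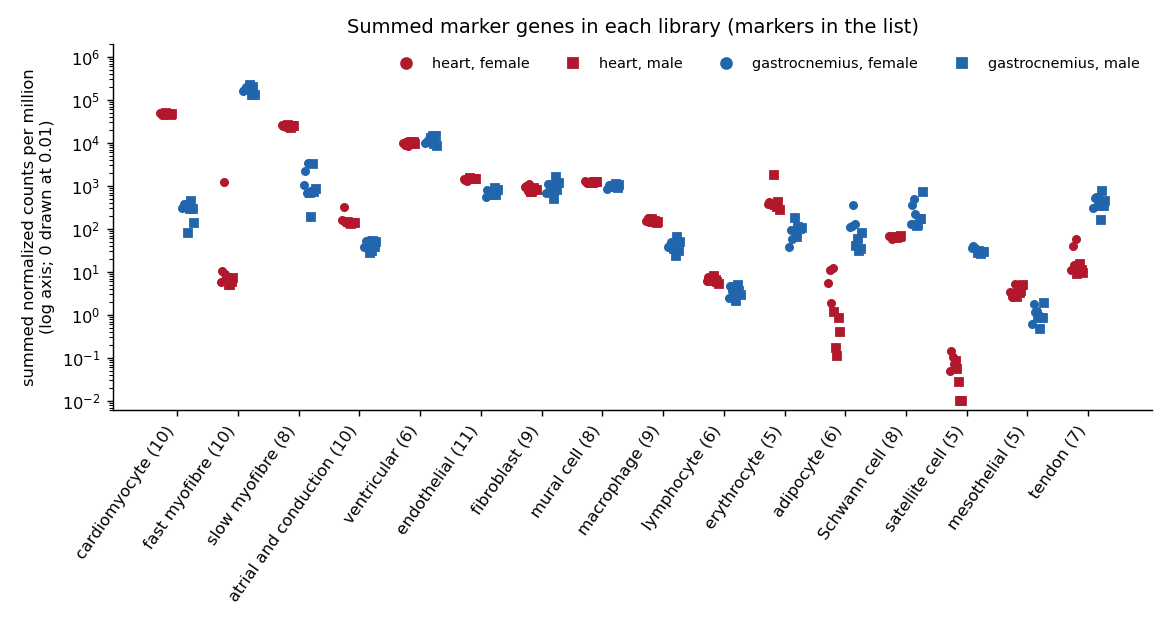
Summed normalized counts (CPM) of the markers of 16 cell types in each library, on a log axis with 0 drawn at 0.01, with hearts in red, muscles in blue, circles for females and squares for males, and the number of markers in brackets. Macrophage, endothelial, mural, lymphocyte, mesothelial and erythrocyte sums are higher in all hearts, adipocyte, Schwann cell, satellite cell and tendon sums are higher in all or nearly all muscles, and 1 heart (female 3) lies far above the others for fast myofibre markers.

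Outside the lists, the 10 protein-coding genes with the largest difference in each direction at a mean log2 CPM of at least 5 were taken. In favour of gastrocnemius they were Tmem233, Car3, Ppp1r27, Smtnl1, Sypl2, Plcd4, Tspan8, Mss51, Dusp13 and Kcnc4, from 268-fold for Kcnc4 to 1219-fold for Car3, leaving out Tmem233, for which no fold is quoted. Without female 3 the log2 differences of Smtnl1, Tspan8 and Dusp13 moved from -8.91, -8.63 and -8.40 to -9.89, -9.35 and -9.11. Tmem233, a membrane protein, was at 0 to 2.41 CPM in hearts (median 0) and 220.4 to 485 (median 309.6) in muscles, with all 92 of its heart reads in female 3. Car3, the carbonic anhydrase of muscle and fat, was at 0.0842 to 29.9 CPM in hearts (median 0.938) and 1523 to 4930.1 (median 2728) in muscles (log2 -10.25 ± 0.643 (SE), adjusted p = 5.56e-09, and -10.58 without female 3). For each of these 10 genes the heart of female 3 was the highest of the hearts. In favour of heart were Ptgds, Tnni3k, Lrrc10, Rnf207, Frmd5, Mtus2, Kcng2, Doc2g, Fblim1 and Myzap, from 99.3-fold to 1682-fold. Ptgds, a prostaglandin D2 synthase, was at 84.7 to 276 CPM in hearts (median 206) and 0 to 0.308 (median 0.119) in muscles (log2 10.72 ± 0.216 (SE), adjusted p = 1.42e-13), and Tnni3k, a kinase that binds cardiac troponin I, at 108 to 136 CPM in hearts (median 119) and 0 to 0.357 (median 0.0457) in muscles (log2 10.65 ± 0.266 (SE), adjusted p = 7.6e-13, and 11.67 without male 5, the highest muscle). Lrrc10 and Myzap, proteins of the cardiac Z-disc and intercalated disc, were at 67.9 to 122 (median 98.9) and 314 to 402 (median 372) CPM in hearts. Kcng2, a modifier of potassium channels, was at 113 to 168 (median 142) CPM in hearts and 0 to 0.961 (median 0.512) in muscles.

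Whether the heart differed from the gastrocnemius to the same extent in both sexes was tested by the interaction of tissue and sex. Of 17942 genes, 74 passed (0.412%), and 1691 had an unadjusted p below 0.05. The log2 difference (heart minus gastrocnemius), taken with its sign, was higher in females for 51 genes (0.284%) and lower for 23 (0.128%). The count of genes that passed fell to 39 without female 2, 47 without female 3, 40 without female 4, 45 without male 1 and 47 without male 4. It rose to 94 without male 3, 114 without the mouse as a block and 265 with DESeq2. In the 5 genes with the smallest p among those 51, every female muscle lay below every male muscle. Actr3b (chr5:25759997-25850688), an actin-related protein, was at 2.36 ± 0.342 CPM in female muscles (mean ± SD, n = 4) and 31.1 ± 8.05 in male ones (n = 5), and at 34.7 ± 2.68 and 41.3 ± 2.52 in hearts (log2 3.44 ± 0.204, adjusted p = 1.02e-05). Slc30a2 (chr4:134343181-134354484), a zinc exporter, was at 2.31 ± 0.922 and 28.2 ± 8.06 in muscles, and at most 1.05 in hearts (log2 3.91 ± 0.272, adjusted p = 3.33e-05). Irx3 (chr8:91798525-91802067), a homeobox factor of the ventricular conduction system, was at 1.97 ± 0.0993 and 8.44 ± 1.105 in muscles and 31.6 ± 3.205 and 34.8 ± 4.32 in hearts (log2 1.96 ± 0.168, adjusted p = 0.000197). Kcng4 and Cbr2 followed, with log2 2.94 ± 0.322 and 2.24 ± 0.247.

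In the other direction, Sesn1 (chr10:41809935-41908424), a stress-induced regulator of growth signalling, was at 47.9 ± 3.58 CPM in female muscles and 20.5 ± 2.86 in male ones, beside 92.05 ± 3.74 and 95.1 ± 6.67 in hearts (log2 -1.28 ± 0.0991, adjusted p = 8.14e-05). Grb10 (chr11:11930508-12038683), an imprinted adaptor of insulin signalling, was at 64.01 ± 4.63 and 29.997 ± 4.91 in muscles and 67.1 ± 2.16 and 66.2 ± 3.304 in hearts (log2 -1.08 ± 0.137, adjusted p = 0.00388). Rhpn2, Igsf1 and Best3 were the other leading genes, at log2 -2.003, -1.73 and -0.96. Of the 74 genes, 4 lay on the X or Y chromosome. Of the genes in the lists, Irx3 and the nuclear receptor Nr4a3 (log2 -2.35 ± 0.340, adjusted p = 0.00831) passed, and no gene of the sarcomere, calcium or metabolic lists did.

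The interaction of tissue and age compared the 9 young with the 10 old control mice. Of 18397 genes tested, 247 passed (1.34%), and 2513 had an unadjusted p below 0.05. The log2 difference, taken with its sign, was higher in young mice for 151 genes (0.821%) and lower for 96 (0.522%). A lower value means a wider separation where a gene is higher in gastrocnemius. With DESeq2 586 genes passed. Ddc (chr11:11814101-11898144), aromatic amino acid decarboxylase, was at 2.56 ± 1.002 CPM in young hearts (mean ± SD, n = 9) and 0.528 ± 0.342 in old ones (n = 10), and at 0.365 ± 0.226 and 0.684 ± 0.258 in muscles (log2 3.41 ± 0.436, adjusted p = 0.000472). Eda2r (chrX:97333840-97377216), a receptor of the tumour necrosis factor family, was at 32.4 ± 3.87 in young muscles and 82.3 ± 28.1 in old ones, and at 3.803 ± 0.398 and 4.98 ± 0.91003 in hearts (log2 0.91 ± 0.137, adjusted p = 0.00201). All old muscles lay above all young muscles for Eda2r. Plekhh1, Mfsd7a and Fam214a were at log2 3.22, 1.47 and 0.73.

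Among genes with a lower signed log2 difference in young mice was Prkcq (chr2:11172108-11301222), a protein kinase C of skeletal muscle and T cells. Prkcq was at 7.36 ± 1.28 CPM in young and 17.5 ± 4.61 in old hearts, and at 126 ± 10.04 and 126 ± 7.71 in muscles (log2 -1.22 ± 0.149, adjusted p = 0.000472). Its tissues thus lay further apart in young mice. Edn3 (chr2:174760619-174784042), a vasoactive endothelin, was at 1.26 ± 0.669 and 6.68 ± 3.14 in hearts and 1.01 ± 0.4496 and 0.536 ± 0.274 in muscles (log2 -3.30 ± 0.422, adjusted p = 0.000472). Serpine2, Kctd15 and the transferrin receptor Tfrc were at log2 -0.80, -0.82 and -1.13. Of the genes in the lists, 14 passed. One of them, the atrial light chain Myl7, rests in young mice on the heart of female 2, and its call was lost without the block and took the other sign with DESeq2 (log2 -1.27). Myot, a Z-disc protein (-4.48 in young and -3.69 in old mice, adjusted p = 0.00309), and Vgll2, a cofactor of slow-fibre genes (-7.08 and -4.88, adjusted p = 0.00932), were separated more widely in young mice. So were the stress-induced Ankrd1 (6.33 and 4.88, adjusted p = 0.022) and Jup of the desmosome (1.10 and 0.61, adjusted p = 0.012). Clcn1 and the acetylcholine receptor subunit Chrnb1 were separated more widely in old mice, at -4.75 and -2.92 in young and -5.61 and -3.80 in old (adjusted p of 0.0117 and 0.00992). No gene of the metabolic or mitochondrial lists passed.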

How the data were processed

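Polyadenylated RNA of heart and gastrocnemius was sequenced by the authors, mapped with STAR 2.7.2b to mm10 (GRCm38.p6) and deposited as raw counts per gene, with 1 library per column. The counting tool, annotation and strand setting are not given in the sources used here. Of the gene counts from 1 to 19, 73.6% to 80.2% were even in a library. Whether both reads of a pair were counted was not tested, so small read counts may stand for fewer fragments. Counts of 57010 gene IDs were used as deposited, and 52081 matched GENCODE M21, from which names, coordinates and exon lengths were taken. All value columns were mapped to samples by the labels.

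Genes that reached 10 reads in 3 or more of the 18 libraries were tested, after RLE scaling, with edgeR 4.0.16 (R 4.3.3), a quasi-likelihood F test with the mouse as a block, and Benjamini-Hochberg adjustment at 0.05. The 2-fold test was edgeR's glmTreat at a log2 difference of 1. The SE beside a log2 difference was not estimated directly by the fit. It is the size of the difference divided by the square root of its F statistic. Where a tissue has few reads of a gene, it is only a rough guide to the uncertainty. Interactions of tissue with sex (18 libraries) and age (38 libraries) kept the block. Shares were compared by exact sign flips within mice. The pairing comes from the labels, which give both libraries of a mouse the same sample code, and deviations of same-mouse libraries correlated at r of -6.72e-05 to 0.161, highest with the own partner in 5 of 9 mice. The labels name separate mice as replicates, and no pair of 32 replicate pairs agreed within sampling noise (lowest chi-square per degree of freedom 5.95). Depth is 28.1 to 53.2 M counts per library.

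Gene groups came from 44 lists and 23 families. Members and lists were chosen with earlier results of these data known. The genes named were those past 2-fold with the largest level in a list, members against the majority of their list, defining markers, the 10 genes outside the lists with the largest difference in each direction, and up to 5 genes in each direction of an interaction. Genes with at most 3 reads in all libraries of a tissue have no quoted fold. Alternatives were DESeq2 1.42.0, TMM and total-count scaling, other filters, no block, each sex alone and leaving out each mouse. Leaving out females 2 and 3 together was chosen after seeing the data. The statistical steps were tested on simulated data. Sequences are from RefSeq (GRCm38.p6). Some genes that meet these rules are not reported here.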

Additional observations from a re-analysis of the deposited data

Results flagged for a closer look

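In 27 of 142 groups of 9 values examined (19.01%), the highest library stood farther from its nearest neighbour than Dixon's limit allows. Chance gives this in about 1 group in 20 only for independent, normally distributed values. Levels were not put on a log scale and many groups share a library, so that rate does not apply here. Most of the 27 groups came from 2 hearts. The heart of female 3 was the highest of the hearts for transcripts that are abundant in fast myofibres, in CPM Myh4 524, Actn3 115, Tnnt3 125, Ryr1 61.1, Atp2a1 266, Pvalb 45.0, Tbx15 2.80, Hoxc10 0.523, Mstn 0.942, Ampd1 11.7, Tmem233 2.41, Car3 29.9 and Acta1 375, with a sum of fast myofibre markers of 1212. The heart of female 2 was the highest for Myl4 76.2, Sln 19.7, Nppa 40.6 and Pdk4 885 CPM, with a sum of atrial and conduction markers of 328. The heart of male 1 was the highest for erythrocyte markers, 1785 CPM.

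Among muscles, female 1 was the highest for Nppa (0.140 CPM), female 2 for Pdk4 (1909) and male 5 for Tnni3k (0.357). The muscle of female 3 was the highest for Adipoq (50.4 CPM), for adipocyte markers (363) and for depth (53.2 M counts). The muscle of male 1, like its heart, was the highest for erythrocyte markers (180.3 CPM).

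The difference between heart and gastrocnemius itself differed between young females and males (edgeR's interaction test, log2 difference in females minus that in males) for Actr3b 3.44, Slc30a2 3.91, Irx3 1.96, Kcng4 2.94 and Cbr2 2.24 on one side and for Sesn1 -1.28, Rhpn2 -2.003, Igsf1 -1.73, Best3 -0.96 and Grb10 -1.08 on the other. Between young and old mice (young minus old) it differed for Ddc 3.41, Plekhh1 3.22, Mfsd7a 1.47, Eda2r 0.91 and Fam214a 0.73 and for Prkcq -1.22, Edn3 -3.30, Serpine2 -0.80, Kctd15 -0.82 and Tfrc -1.13.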

How the results depend on the processing

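The counts of genes called and past 2-fold, over both directions together, stayed within 1.5 times under every alternative run. By direction they did not, since totals without mitochondrial DNA gave 2786 calls for gastrocnemius where RLE scaling gave 6271 and 5621 genes past 2-fold for heart where RLE gave 2635, and total counts gave 3582 and 4375. Leaving out each mouse in turn gave 12884 to 13483 called genes, 4584 to 4899 past 2-fold, mitochondrial DNA differences of 12.4 to 13.03 points and 23 to 23 families. Without the mouse as a block, 13397 genes were called, 4758 passed 2-fold, and the sexes differed in 114 genes where the blocked fit gave 74. The sex count was 265 with DESeq2 and 39 to 94 without each mouse in turn, and the age count rose from 247 to 586 with DESeq2. The cause of these changes was not tested. Of 3057 values of 161 named genes, 3014 kept their direction and call, 28 lost and 5 gained a call, and 10 changed sign. Those were Myh7 (-0.29 in females alone), Acacb (0.10 with total counts and 0.32 with totals without mitochondrial DNA), Idh3a (0.062 with the latter), Atp5g2 (0.20 and 0.42) and Slc25a4 (0.41 and 0.63, 0.025 with TMM and 0.10 in females alone). The 20 leading genes of both interactions kept their direction and call in each alternative run, which for age did not include leaving out single mice. Of the list genes that passed for age, 8 of 14 kept theirs, and Myl7 turned to -1.27 with DESeq2. Leaving out females 2 and 3 together, chosen after seeing the data, left 12427 called genes. Depth limits what can be said of genes with few reads in one tissue, where 1 library decides the value.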
